A study of Mus musculus with 6 samples.

Results

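The acute phase proteins are plasma proteins whose synthesis in the liver changes when inflammation is signalled to it. Interleukin-6 acts on hepatocytes through the receptor subunit gp130 and the transcription factor STAT3, and interleukin-1 and tumour necrosis factor act through NF-kB, with C/EBP factors acting beside both. In the mouse, serum amyloid A, the orosomucoids and haptoglobin are classical products of this response, and Lcn2 and Serpina3n are also induced by it. The genes followed here were 10: Saa1, Saa2, Saa3, Saa4, Orm1, Orm2, Hp, Lbp, Lcn2 and Serpina3n. Their probes were all probes on the array, control spots left out, that carry one of these gene names, and this gave 12 of 41174 probes and 10 of 27343 named genes or transcripts. Saa1 and Saa4 each had 2 probes, called (a) and (b) here, and every other gene had 1.

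RNA came from whole livers of male BALB/c mice, 3 controls given sterile water and 3 given 100 µg/L microcystin-LR (MC-LR) in the drinking water. MC-LR is a cyclic peptide toxin of cyanobacteria that enters hepatocytes and inhibits protein phosphatases. Treatment started at an age of 6 weeks and lasted 12 months in both groups, so all livers came from mice of the same age, with no genetic change and with 1 dose and 1 time point. The labels describe the livers as taken from independent animals, and a separate single-colour Agilent array was used for each. Values are log2 signals after quantile normalization, a scale on which a difference of 1 is a 2-fold difference, and they are comparable between arrays for 1 probe but not between probes.

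On the arrays, 64.9% to 73.7% of spots read well above background and 0 were saturated, and the arrays correlated with each other at r = 0.982 to 0.994. With 3 arrays a group, their number sets the precision. The slides were not balanced: slide 1 held controls 1 and 2, and slide 2 held control 3 together with all MC-LR arrays. All 12 acute phase probes were well above background on all 6 arrays. The tissue matched its label, since 9 of 9 measured hepatocyte markers, Alb and Apoa1 among them, were well above background on every array. In whole liver, fewer cells of a type and less RNA per cell cannot be told apart.

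The probes below show which part of each transcript was read, since the Saa and Orm genes are close relatives and a signal from 1 gene can include RNA of another. Each is given as the 60 letters on the array, 5′ to 3′, for the genes whose probe reads coding sequence.
Saa1 (a): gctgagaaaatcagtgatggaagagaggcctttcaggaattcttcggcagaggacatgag
Saa1 (b): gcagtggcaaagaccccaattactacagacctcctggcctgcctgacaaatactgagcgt
Saa3: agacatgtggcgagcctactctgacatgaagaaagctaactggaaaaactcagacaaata
Orm1: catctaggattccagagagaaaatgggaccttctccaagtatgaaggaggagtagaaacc
Orm2: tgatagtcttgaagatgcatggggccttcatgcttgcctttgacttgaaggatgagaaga
Hp: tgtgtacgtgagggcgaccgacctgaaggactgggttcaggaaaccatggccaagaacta
Lbp: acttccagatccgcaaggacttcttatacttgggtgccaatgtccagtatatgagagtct
Lcn2: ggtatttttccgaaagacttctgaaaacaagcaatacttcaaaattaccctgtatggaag

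In the mm9 coordinates of the files, the Saa probes sit in 1 cluster on chromosome 7. Saa1 (a) matched chr7:53996167-53996639 on the minus strand, a span of 473 bases for a 60-base probe, so it crosses a splice junction. Saa1 (b) lay at chr7:53996070-53996129 on the same strand. The Saa2 probe lay at chr7:54009535-54009594 on the plus strand and the Saa3 probe at chr7:53968031-53968090 on the minus strand. The accession list of the Saa3 probe also names a Saa1 transcript. The Saa4 probes lay at chr7:53984760-53984819 (a) and chr7:53983662-53983721 (b), both on the minus strand. Orm1 (chr4:63006483-63007090) and Orm2 (chr4:63024979-63025038) are neighbours on the plus strand of chromosome 4. The Hp probe lay at chr8:112099172-112099231 on the minus strand and the Serpina3n probe at chr12:105651918-105651977 on the plus strand. On chromosome 2, Lbp lay at chr2:158154142-158157684 on the plus strand and Lcn2 at chr2:32241037-32241281 on the minus strand. The Orm1, Lbp and Lcn2 probes span 608, 3543 and 245 genomic bases, so each of them crosses a junction as well.

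The question of the comparison was how a year of drinking water with MC-LR left these transcripts. The 10 genes did not move as a block. Lcn2 and Lbp had the largest differences, both lower with MC-LR, followed by Orm2 and Serpina3n. The differences of the Saa genes, Orm1 and Hp were smaller, and their groups overlapped. None of the 12 probes passed the threshold of limma after Benjamini-Hochberg adjustment over 28487 probes, where 0.0105% of all probes passed. At an unadjusted p under 0.05, 4 of the 12 probes were lower with MC-LR, against 5.02% of all probes, and 0 were higher, against 7.93%. The count of 4 was not stable. It was 2 with replicate number as a block, and 2 without control 1, MC-LR 1 or MC-LR 3. With slide as a fixed block it was 1. The 10 genes were also chosen with earlier results of these data known. The arrays of the groups did not overlap for 3 probes, all lower with MC-LR, against 8.55% of all probes that were lower in this way and 11.8% that were higher. The median difference over the 12 probes was -0.07, with 8 of them negative, beside a median of 0.0031 and 49.5% negative over all probes. This median turned to 0.06 with 75th percentile scaling and to 0.10 with median scaling, so it has no settled direction.

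**Figure D1:**
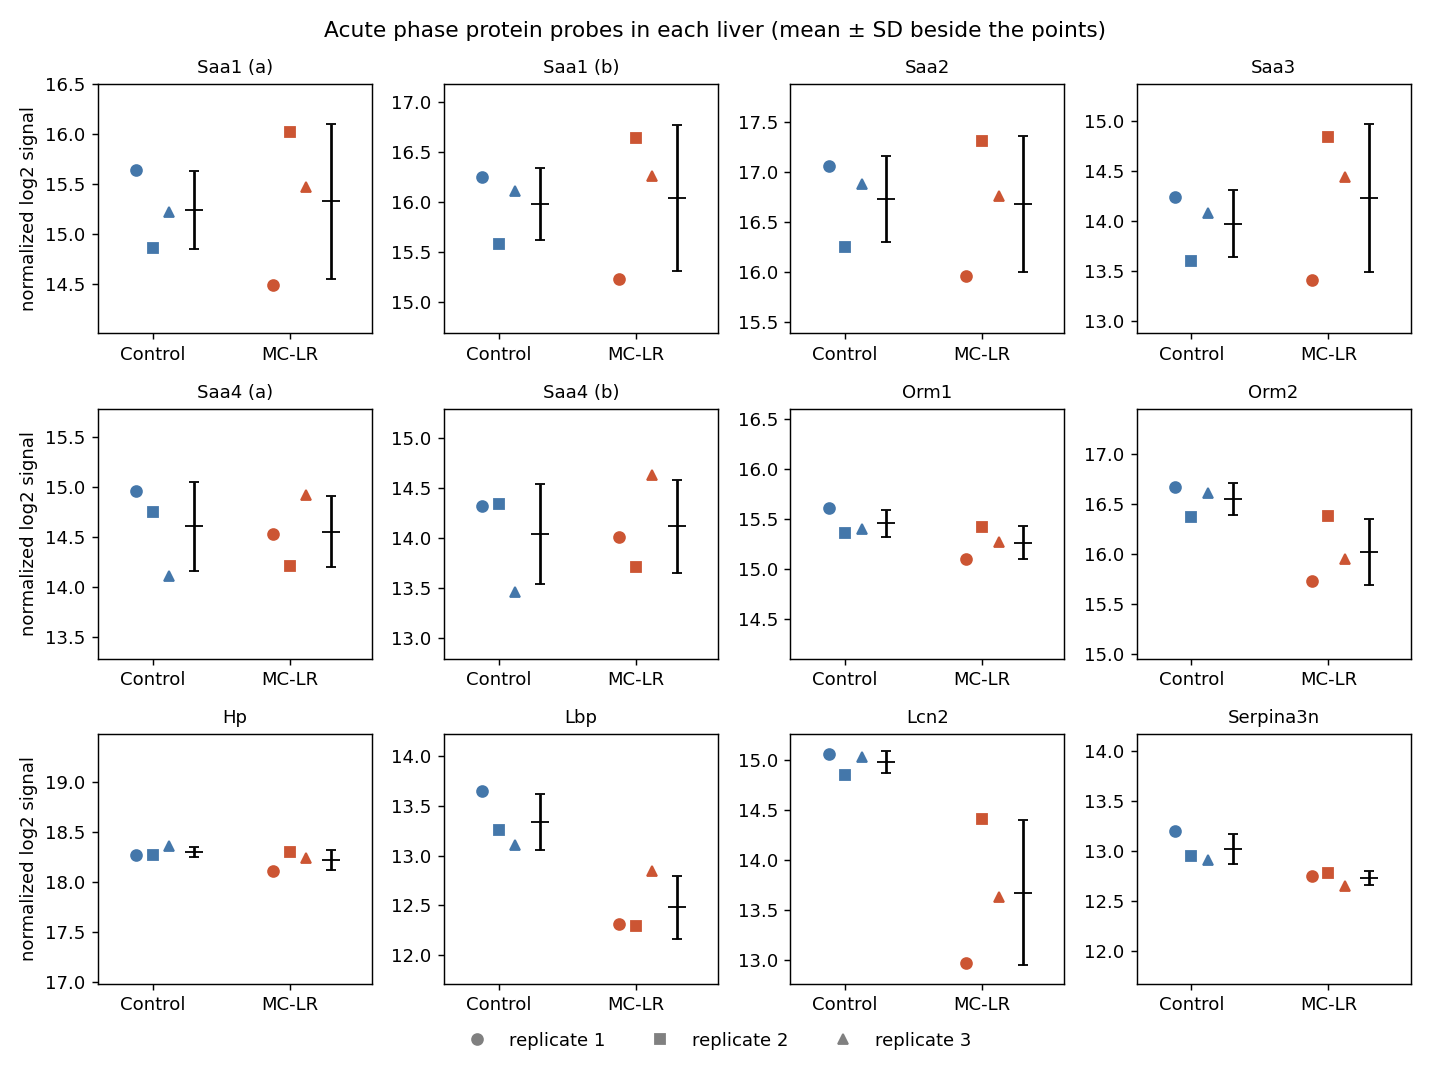
Normalized log2 signal of each acute phase probe (vertical axis, a window of 2.5 log2 units in every panel) in 3 control and 3 MC-LR livers, 1 point per liver, with the mean and SD (n = 3) as a bar beside the points. The MC-LR points of Lbp, Lcn2 and Serpina3n all lie below the control points, and in the Saa1, Saa2 and Saa3 panels MC-LR 1 is the lowest and MC-LR 2 the highest point.

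Lcn2 encodes lipocalin 2, which binds bacterial siderophores and so withholds iron from bacteria. It is made by hepatocytes in the acute phase and is also stored in neutrophil granules. In controls 1, 2 and 3 its signal was 15.06, 14.85 and 15.03, and in MC-LR 1, 2 and 3 it was 12.97, 14.42 and 13.63. Every MC-LR liver was below every control, with a gap of 0.44 between the groups, but the treated livers spread far more widely than the controls (13.67 ± 0.73 against 14.98 ± 0.11, SD, n = 3 each). The difference was -1.31 ± 0.35 (SE), a signal 2.48-fold lower with MC-LR, with a 95% interval of 0.223 to 0.729 for the ratio of MC-LR to control. The unadjusted p of limma was 0.00922 and the adjusted p was 0.267. Without MC-LR 1 the difference was -0.96, and without MC-LR 2 it was -1.68.

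Neutrophil markers were read beside Lcn2 because its transcript also occurs in that lineage. S100a9, a calcium-binding protein abundant in neutrophils, read 12.88, 12.60 and 13.31 in the controls and 11.70, 12.88 and 11.37 with MC-LR. Like Lcn2, it was higher in MC-LR 2 than in MC-LR 1 and 3, but unlike Lcn2 its groups overlapped. All 8 neutrophil markers tested, of 12 on the list, had a negative difference (51.4% of all genes did), with a median of -0.50. In limma 0 of these markers were lower (5.35% of genes) and 0 higher (7.57%) at an unadjusted p under 0.05. The log2 of the summed signal of all 11 listed markers with a probe was 12.95 to 13.71 in the controls and 11.82 to 13.28 with MC-LR. Bright probes, S100a9 among them, dominate this sum. Elane and Mmp8, which mark neutrophil granules, were well above background on 2 of 6 arrays each, and Ngp on 4. With control 3 as the single control of slide 2 the median of the list was -1.21, and without control 3 it was -0.24. The part of these markers in the Lcn2 result was not tested.

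Lbp encodes lipopolysaccharide-binding protein, a plasma carrier that hands bacterial lipopolysaccharide to CD14. The controls read 13.64, 13.26 and 13.10, and the MC-LR livers read 12.31, 12.29 and 12.85. The groups were apart by 0.26, and the 2 lowest values belonged to MC-LR 1 and 2. The difference was -0.85 ± 0.21 (SE), 1.80-fold lower with MC-LR, with an adjusted p of 0.252 by limma. The 95% interval of the ratio was 0.388 to 0.792.

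The proteins that act with Lbp at the cell surface were measured too, and those named in this paragraph were chosen after their values were seen. Cd14, the receptor that takes lipopolysaccharide from Lbp, read 11.61, 10.93 and 12.05 in controls and 9.88, 10.60 and 10.47 with MC-LR. Its groups did not overlap, and its difference was -1.21 ± 0.33 (SE), with an adjusted p of 0.267 by limma. Ly96, which encodes the MD-2 subunit that holds lipopolysaccharide on the receptor TLR4, had a difference of -0.53 ± 0.14 (SE) and an adjusted p of 0.265 in the same limma fit, again without overlap. Cd14 is also a gene of Kupffer cells, the macrophages of the liver. All 10 markers of that cell type had a negative difference (median -0.28), beside 51.4% of all genes. In limma 0 of these markers were lower (5.35% of genes) and 0 higher (7.57%) at an unadjusted p under 0.05. The log2 of their summed signal was 16.84 to 17.71 in controls and 16.66 to 16.96 with MC-LR. The median of these markers was -0.85 within slide 2, -0.11 without control 3 and -0.11 without MC-LR 1. Their part in the Lbp and Cd14 values was not tested.

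**Figure D2:**
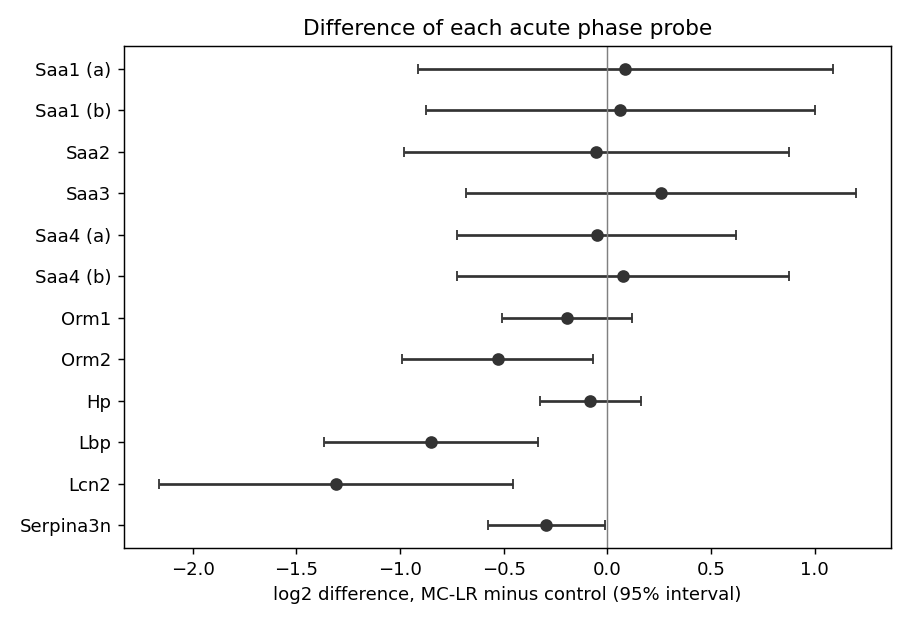
Difference in log2 signal, MC-LR minus control (horizontal axis), for each of the 12 acute phase probes, with its 95% interval from limma. Intervals of Lcn2, Lbp, Orm2 and Serpina3n lie below 0 before adjustment over all probes, and the widest of the others are those of the Saa1, Saa2 and Saa3 probes.

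The orosomucoids, alpha-1 acid glycoproteins that carry drugs and lipids in plasma, were next. Orm2 read 16.68, 16.37 and 16.61 in controls and 15.73, 16.38 and 15.95 in MC-LR livers. MC-LR 2 lay within the range of the controls, just above control 2, and the other treated livers lay below all controls. The difference was -0.53 ± 0.19 (SE), 1.44-fold lower with MC-LR, with an unadjusted p of 0.0303 and an adjusted p of 0.346 by limma. With 75th percentile or median scaling the groups did not overlap, with differences of -0.43 and -0.40. Orm1, which lies beside it on the chromosome, read 15.61, 15.36 and 15.40 in controls and 15.10, 15.42 and 15.27 with MC-LR. Its groups overlapped, its difference was -0.19 ± 0.13 (SE), and the adjusted p of limma was 0.564. The third gene of the family, Orm3, named after its values were seen, had a difference of 0.11 ± 0.39 (SE), which turned to -0.49 with slide as a block. Whether Orm1 and Orm2 differ from each other in response was not tested, nor was the share of signal that each probe takes from the related transcript.

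Serpina3n encodes an inhibitor of serine proteases related to human alpha-1-antichymotrypsin. Its controls read 13.19, 12.95 and 12.91 and its MC-LR livers 12.75, 12.78 and 12.64. The groups were separated by a narrow gap of 0.13. With median scaling it nearly closed, with control 3 at 12.80 and MC-LR 1 at 12.78. The difference was -0.29 ± 0.12 (SE), 1.23-fold lower with MC-LR, with an unadjusted p of 0.0427 and an adjusted p of 0.372 by limma. With 75th percentile and median scaling the unadjusted p of limma was 0.0784 and 0.129. Within slide 2 the difference was -0.19. Of the other Serpina3 genes, which lie in a cluster with it, 7 of 9 were tested. In limma 0 of these were lower (5.35% of all genes) and 0 higher (7.57%) at an unadjusted p under 0.05. Their median difference was 0.14. This median has no settled sign or size, since it was 0.56 within slide 2, 0.022 without MC-LR 1 and -0.083 without control 3. Serpina3b (-0.38 ± 0.26, SE) and Serpina3m (0.20 ± 0.17, SE) had the smallest p-values among them, and within slide 2 their differences were -0.021 and 0.56.

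Haptoglobin, encoded by Hp, binds free haemoglobin in plasma. Its signal was 18.27, 18.27 and 18.36 in controls and 18.11, 18.31 and 18.24 with MC-LR, a difference of -0.08 ± 0.10 (SE) with overlapping groups and an adjusted p of 0.758 by limma. The probe was among the 13 brightest on every array, where quantile normalization leaves the least room for values to differ. With 75th percentile scaling the difference was 0.12 and with median scaling it was 0.15, and under both the MC-LR livers lay above all controls. The direction for Hp therefore depends on the scaling.

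The serum amyloid A proteins associate with high-density lipoprotein. Saa1 and Saa2 are the inducible liver forms, Saa3 is also made by macrophages and fat, and Saa4 is the constitutive form. None of the 6 probes differed between the groups beyond the spread between livers, and the differences ran from -0.05 to 0.26. Saa1 (a) read 15.64, 14.86 and 15.22 in controls and 14.49, 16.02 and 15.46 with MC-LR, a difference of 0.09 ± 0.41 (SE). Saa1 (b) read 16.25, 15.57 and 16.11 in controls and 15.23, 16.64 and 16.25 with MC-LR, a difference of 0.06 ± 0.39 (SE). Both probes of the gene placed the 6 livers alike at their ends, with MC-LR 1 lowest and MC-LR 2 highest.

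The same ends were seen for Saa2 and Saa3. The accession list of the Saa3 probe also names a Saa1 transcript, and the share of Saa1 RNA in its signal was not tested. Saa2 read 17.06, 16.25 and 16.88 in controls and 15.96, 17.31 and 16.76 with MC-LR, a difference of -0.05 ± 0.38 (SE) that turned to 0.09 with 75th percentile scaling. Saa3 read 14.24, 13.59 and 14.08 in controls and 13.40, 14.84 and 14.44 with MC-LR, a difference of 0.26 ± 0.39 (SE). The adjusted p-values of limma for these 4 probes were 0.811 or more. Their intervals were wide, since the ratio of MC-LR to control lay between 0.506 and 1.83 for Saa2 and between 0.622 and 2.29 for Saa3.

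For all 4 probes of the inducible genes, the spread inside the treated group was larger than the difference between groups. MC-LR 2 exceeded MC-LR 1 by 1.35 to 1.54, which is 2.55-fold to 2.90-fold, and control 1 exceeded control 2 by 0.64 to 0.82. Averaged over these probes, MC-LR 1 lay at -0.75 from the mean of the 6 arrays, MC-LR 2 at 0.68 and MC-LR 3 at 0.21, while controls 1, 2 and 3 lay at 0.27, -0.46 and 0.05. Leaving out MC-LR 1 moved the Saa3 difference to 0.67, and leaving out MC-LR 2 moved it to -0.05.

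**Figure D3:**
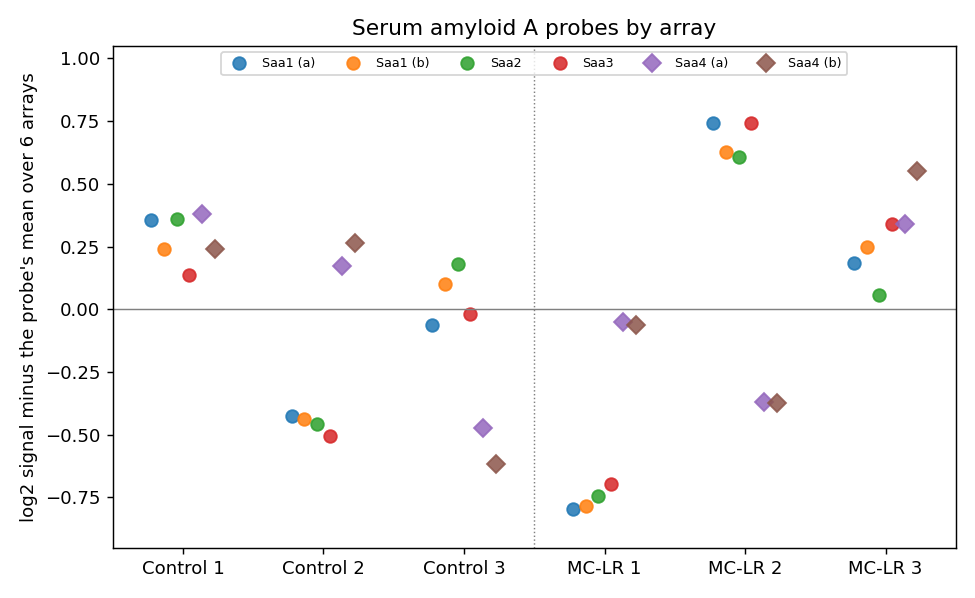
Log2 signal of each Saa probe minus its own mean over the 6 arrays (vertical axis), by array, with circles for Saa1, Saa2 and Saa3 and diamonds for Saa4. Circles are lowest in MC-LR 1 and highest in MC-LR 2, and diamonds are lowest in control 3.

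Saa4 followed another order. Saa4 (a) read 14.96, 14.75 and 14.11 in controls and 14.53, 14.21 and 14.92 with MC-LR. Saa4 (b) read 14.32, 14.34 and 13.46 in controls and 14.01, 13.70 and 14.63 with MC-LR. Control 3 was the lowest array for both probes, by 0.75 and 0.87 below the mean of controls 1 and 2, and MC-LR 2 was below MC-LR 1 by 0.32 and 0.31, the reverse of the inducible genes. The differences were -0.05 ± 0.28 and 0.08 ± 0.33 (SE), with adjusted p-values of 0.955 and 0.942 by limma. Since control 3 alone shares a slide with the treated livers, the differences within slide 2 were 0.45 and 0.66, and the sign for Saa4 (a) depends on whether slide is considered.

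The promoters of Saa1 and Saa2 are printed to show how alike the starts of these inducible genes are. The promoter of Saa3 is less alike. Whether promoter likeness bears on the order of the livers was not tested. The sequences are the 250 bases before each start in RefSeq, assembly GRCm38.p6, 5′ to 3′ on the strand of the gene, at chr7:46742981-46743230 on the minus strand for Saa1 and at chr7:46751583-46751832 on the plus strand for Saa2, and capitals mark a match to the C/EBP pattern TTNNGNAAT on the opposite strand.
Saa1: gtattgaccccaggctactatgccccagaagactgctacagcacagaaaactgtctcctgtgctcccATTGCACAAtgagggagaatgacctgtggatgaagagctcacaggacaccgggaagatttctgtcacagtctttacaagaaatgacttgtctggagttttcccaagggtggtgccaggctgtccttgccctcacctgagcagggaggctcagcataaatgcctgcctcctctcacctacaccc
Saa2: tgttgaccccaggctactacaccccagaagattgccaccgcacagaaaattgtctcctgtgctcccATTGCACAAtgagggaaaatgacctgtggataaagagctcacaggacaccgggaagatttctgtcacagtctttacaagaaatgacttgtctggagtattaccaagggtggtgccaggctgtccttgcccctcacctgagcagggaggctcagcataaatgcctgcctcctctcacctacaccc

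Aligned end to end, the Saa1 and Saa2 stretches were identical at 238 of 251 columns (94.8%), while Saa1 shared 52.2% of columns with Saa3 and 49.5% with Saa4. Promoters were matched for 7 of the 10 genes, Saa1, Saa2, Saa3, Saa4, Orm2, Lcn2 and Serpina3n. The C/EBP pattern, searched on both strands, was in 4 of the 7 and in 10.2% of all 32851 promoters of the same length. It lay at bases -183 to -175 in Saa1, -184 to -176 in Saa2 and -109 to -101 in Orm2, counted back from the start, and at -228 to -220 and -57 to -49 in Serpina3n. The NF-kB pattern of 10 bases was in 1 of the 7, Serpina3n at -171 to -162, and in 4.11% of all promoters. The STAT pattern TTCNNNGAA and the type II interleukin-6 response element CTGGGAA were in 0 of the 7, against 7.02% and 9.10% of all promoters. No match overlapped another. A match describes letters and not a site in use, and no match says only that these letters are not in the window.

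The profile shared by the 10 genes was described by averaging them after scaling each gene over the 6 arrays. The averaged profile was highest in control 1 (0.90) and lowest in MC-LR 1 (-1.26), in SD units of each gene, with controls 2 and 3 at -0.02 and 0.29 and MC-LR 2 and 3 at 0.24 and -0.16. Orm1 followed this average most closely (r = 0.978 over 6 arrays), then Orm2 (0.913) and Lcn2 (0.882), and Saa4 least (0.094). Each of the 10 genes is itself part of this average, which raises its r, so these values cannot be set beside those of other genes. Outside the 10, among 2761 genes with a range of at least 1, the most alike were Tmem171 (r = 0.915), Pilrb1 (0.912), Arg2 (0.908), Ttc26 (0.904) and Steap4 (0.903). These correlations describe 6 arrays that share slides and 2 groups, and they carry no test.

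Other positive acute phase proteins were measured with 29 of the 31 genes on a list. Of these, 22 had a negative difference (51.4% of all genes did), and the median was -0.32, beside -0.0080 over all genes. In limma, 0 passed the adjusted threshold (0.0159% of genes), 9 were lower at an unadjusted p under 0.05 (5.35% of genes) and 0 were higher (7.57%). For 11 genes the MC-LR livers were all below the controls (9.23% of genes) and for 2, Serpina1b and Serpina1d, all above (11.3%). Some of these separations were minute. Fgg, counted as lower and named after its values were seen, read 18.03 in both control 3 and MC-LR 1. The difference of Serpina1d was 0.04 ± 0.09 (SE). The median of the list was -0.17 and -0.14 with 75th percentile and median scaling, and -0.14 without control 1. This list and those below were chosen with earlier results of these data known, so their counts are description and not independent evidence. The 2 genes with the smallest p were Serpina10, which encodes the protein Z-dependent protease inhibitor (-0.63 ± 0.12, SE, adjusted p = 0.213 by limma), and Il1rn, the antagonist of the interleukin-1 receptor (-1.15 ± 0.29, SE, adjusted p = 0.253 by limma).

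Some others of this list are given with values, chosen after these were seen. Lrg1, a leucine-rich glycoprotein of plasma, read 16.97, 16.88 and 16.52 in controls and 15.75, 16.32 and 16.06 with MC-LR, a difference of -0.75 ± 0.19 (SE). Steap4, a metalloreductase, had a difference of -0.72 ± 0.22 (SE), and C9, a component of the complement attack complex, of -0.52 ± 0.13 (SE). The pentraxin Apcs had -0.63 ± 0.22 (SE), and Itih3, an inter-alpha-trypsin inhibitor heavy chain, -0.46 ± 0.14 (SE). Of the fibrinogen chains, Fgb had -0.50 ± 0.15 (SE), and -0.32 and -0.28 with 75th percentile and median scaling. Fga had -0.64 ± 0.26 (SE), but within slide 2, where control 3 is the single control, its difference was -0.053. Within slide 2 Lrg1 differed by -0.47, Apcs by -0.41 and C9 by -0.35. All of these were above an adjusted p of 0.05 in limma. Complement C3 had -0.02 ± 0.09 (SE) on its brightest probe, where the sign turned with the scaling (0.11 and 0.15), and -0.62 on its other probe. Ceruloplasmin (Cp) had -0.43 ± 0.13 (SE) on its brightest probe and 0.08 on the other.

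Negative acute phase proteins, whose synthesis is reduced in inflammation, were measured with 13 of 14 genes. Their median was 0.12 (0.24 and 0.27 with 75th percentile and median scaling, and 0.010 within slide 2), with 4 negative (51.4% of all genes). In limma 0 were lower (5.35% of genes) and 2 higher (7.57%) at an unadjusted p under 0.05, and 0 passed the adjusted threshold (0.0159%). Serpina6, the corticosteroid-binding globulin, read 15.16, 15.31 and 15.75 in controls and 16.26, 16.78 and 15.93 with MC-LR. Its groups did not overlap, and the difference was 0.92 ± 0.26 (SE), with an adjusted p of 0.280 by limma and a difference of 0.58 within slide 2. Igfals, the acid-labile subunit of the insulin-like growth factor complex, had a difference of 0.68 ± 0.28 (SE) with an adjusted p of 0.384 by limma. That of Igfals was 1.16 within slide 2 and 0.44 without control 3.

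The signals that drive the acute phase genes were read from 33 of 34 listed genes for cytokines, receptors and transcription factors. Their median difference was -0.20 (-0.19 and -0.15 with 75th percentile and median scaling), and 24 were negative (51.4% of all genes). In limma 8 were lower (5.35% of genes) and 0 higher (7.57%) at an unadjusted p under 0.05, and 0 passed the adjusted threshold (0.0159%). For 11 of them the groups did not overlap, all lower with MC-LR (9.23% of genes). Within slide 2 the median was -0.38, and without control 3 it was -0.12. This list too was chosen with earlier results of these data known. Stat3, the transcription factor downstream of interleukin-6, read 14.27, 14.10 and 13.83 in controls and 13.33, 13.26 and 13.35 with MC-LR. The treated livers lay close together, below all controls, and the difference was -0.75 ± 0.14 (SE), with an adjusted p of 0.211 by limma. A second Stat3 probe had a difference of -0.29.

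Nfkb1, which encodes the p105 and p50 subunits of NF-kB, had a difference of -0.54 ± 0.11 (SE) and an adjusted p of 0.232 by limma on its brightest probe, and of -0.20, -0.03 and 0.04 on its other 3 probes. The following genes of the list were chosen after their values were seen. Osmr, a receptor that signals through gp130, had -0.66 ± 0.21 (SE), and Il6st, which encodes gp130, -0.21 ± 0.11 (SE). Cebpd, a C/EBP factor induced in the acute phase, had -0.68 ± 0.23 (SE). Within slide 2 Osmr and Cebpd differed by -1.12 and -1.07. Cebpb had 0.16 ± 0.25 (SE), which turned to -0.25 within slide 2. Socs3, a feedback inhibitor induced by STAT3, had 0.0011 ± 0.088 (SE) on its brightest probe and -0.33 on the other. Of the cytokine genes, Il6 had -0.64 ± 0.37 (SE), Il1b -0.55 ± 0.34 (SE) and Tnf -0.34 ± 0.64 (SE), and control 3 was the highest of the 6 arrays for all 3. Without control 3 the differences were -0.26 for Il6, -0.15 for Il1b and 0.43 for Tnf, and within slide 2 they were -1.40, -1.36 and -1.89.

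**Figure D4:**
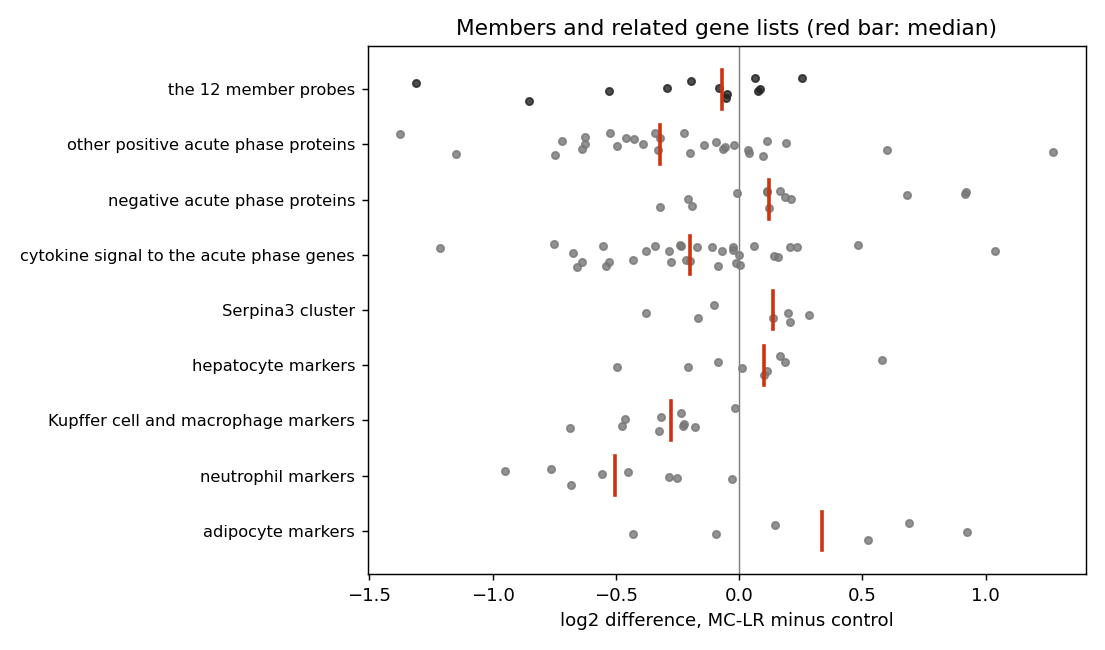
Differences in log2 signal, MC-LR minus control (horizontal axis), for the 12 acute phase probes (top row) and for each gene of related lists, 1 point per gene by its brightest probe, with the median as a red bar. Medians of the other positive acute phase proteins (-0.32), cytokine signal genes (-0.20), Kupffer cell (-0.28) and neutrophil markers (-0.50) lie below 0, and the median of the 12 probes (-0.07) changes sign with the scaling.

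Receptors and partners of the acute phase proteins were measured with 13 of 15 genes. Their median was -0.16 (-0.37 within slide 2, -0.017 without control 1 and -0.055 without control 3). In limma 0 of these genes were lower (5.35% of all genes) and 0 higher (7.57%) at an unadjusted p under 0.05. The protease Ctsg, among those with the smallest p-values, had a difference of -0.53 ± 0.32 (SE), and of -0.24 without control 3. Among markers of other cells of the liver, the medians were 0.10 for hepatocytes, 0.33 for adipocytes, -0.36 for endothelial cells, -0.20 for stellate cells and fibroblasts, -0.10 for cholangiocytes and -0.07 for lymphocytes. Several of them rest on control 3. Without it the medians for stellate cells, cholangiocytes and lymphocytes turned to 0.083, 0.24 and 0.18, and with it as the single control of slide 2 they were -0.49, -0.76 and -0.56. Within slide 2 the endothelial median was -0.055 and the hepatocyte median 0.010. Alb and Ttr are on the hepatocyte list and also on that of the negative acute phase proteins, so these lists are not separate readings. The adipocyte median ran from 0.11 to 0.59 with 1 array left out. The 2 hepatocyte markers with the smallest p were Cyp2e1 (0.58 ± 0.10, SE), an enzyme of the perivenous zone, and Fgb, which is itself an acute phase gene. The log2 of the summed hepatocyte markers was 19.68 to 19.80 in controls and 19.60 to 19.72 with MC-LR, and for endothelial markers it was 14.35 to 14.98 and 14.21 to 14.55. The part of these cell types in the results was not tested.

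Across other ways of processing the arrays, Lcn2, Lbp, Orm2, Serpina3n and Orm1 were lower with MC-LR in every setting tried. Not every setting could have turned a sign. The groups of Lcn2, Lbp and Serpina3n did not overlap, so leaving out arrays or using slide 2 alone could not do so. The filters, the replicate block, the eBayes settings and the fit by genes leave each difference as it was. Over all settings the difference was -1.68 to -0.96 for Lcn2, -1.03 to -0.62 for Lbp, -0.71 to -0.39 for Orm2 and -0.35 to -0.19 for Serpina3n. For Orm1 it was -0.27 to -0.070, the last with median scaling and close to no difference. The adjusted p of limma stayed above 0.05 throughout, from 0.192 to 0.652 for Lcn2 and from 0.122 to 0.664 for Lbp. Within slide 2, where control 3 is the single control, Lcn2 differed by -1.36, Lbp by -0.62 and Orm2 by -0.59.

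**Figure D5:**
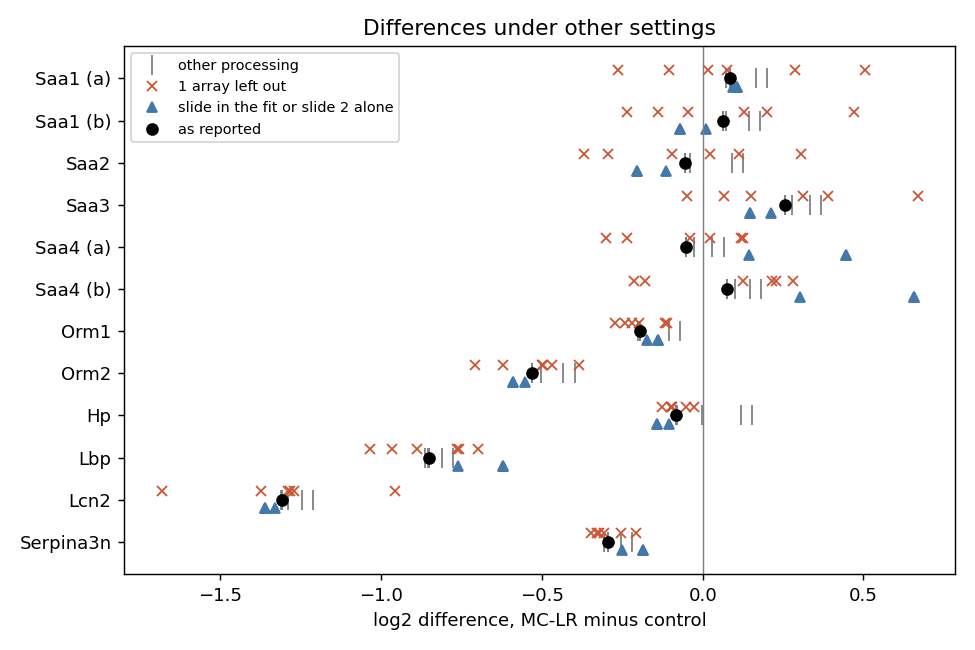
Difference in log2 signal, MC-LR minus control (horizontal axis), of each acute phase probe as reported (black), under other processing (grey bars), with 1 array left out (crosses) and with slide considered (triangles). All marks of Lcn2, Lbp, Orm2, Serpina3n and Orm1 lie below 0, and those of Hp and all Saa probes but none of the others lie on both sides of 0. The crosses of Lcn2, Lbp and Serpina3n could not lie above 0, since their groups did not overlap.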

How the data were processed

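Agilent single-colour arrays of 6 livers were used, grouped by sample title. Scanner intensity values were made with Agilent Feature Extraction, version 10.7, as named in the submitters' processing notes, and the processed intensity is background-subtracted and detrended, per the file headers. The authors' deposited log2 values were quantile normalized in GeneSpring, per the series' design text. Their columns correlated with log2 of their own array at 0.9982 or more, had medians near 5.94, and differed by at most 0.024 for the probes described, so scale and direction are known. They served as an alternative.

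Processed intensity was floored at 1, log2 was taken, outlier-flagged spots were dropped and the 41174 probes were quantile normalized. Probes well above background on all 3 arrays of a group were kept (28487). limma 3.58.1 in R 4.3.3 (lmFit, eBayes, two-sided, 4 residual and 2.19 prior degrees of freedom) compared the groups without slide, with Benjamini-Hochberg adjustment over all probes and a threshold of 0.05. In lists, a gene is its probe with the highest mean signal. Names came from RefSeq accessions for 27668 probes, otherwise from symbols or the file. RefSeq uses the symbols Saa1 and Saa2 as synonyms of each other, and accessions settled them. Coordinates are those of the files (mm9). The fit was tested on simulated data.

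Members and lists were chosen with earlier results of these data known. Named are all members, the 2 genes of each list with the smallest p among those well above background on all 6 arrays, and the 5 genes most alike; others are marked, and some genes under this rule are not reported here. Markers of adipocytes, endothelium, stellate cells, bile ducts and lymphocytes followed the same rule, and their values were Lipe 0.52, Fabp4 -0.43, Pecam1 -0.54, Cdh5 -0.44, Acta2 -0.34, Lrat 0.95, Sox9 -0.73, Spp1 -0.54 and Cd4 0.19, with C1qa -0.47 and Timd4 -0.46 for Kupffer cells and Csf3r -0.45 for neutrophils, none past the adjusted threshold. Alternatives were other scalings, background corrections and filters, the deposited values, slide and replicate blocks, slide 2 alone, other eBayes settings, genes in place of probes, and each array left out.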

Additional observations from a re-analysis of the deposited data

How the results depend on the processing

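None of the 12 acute phase probes passed the adjusted threshold of limma under any of the 18 alternatives in which it was run, and the fit by genes held 10 of them. Over these alternatives their median stayed between -0.27 and 0.10. Over all probes 3 passed as reported, and 1 with 75th percentile scaling, median scaling or a strict filter on dim probes. With slide as a fixed block 15 passed, and with 1 array left out 1 to 133, the 133 without control 3. Replicate numbers are shared by both groups, but the labels do not tie them to a common source. Same-numbered arrays deviated together at r of 0.17, -0.31 and -0.18. These values cannot tell whether the numbers pair the samples, since each group has 3 arrays and the slides were not balanced. With the replicate number as a block, 0 probes passed and 2876 were at an unadjusted p under 0.05.

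Signs of acute phase probes and named genes turned as follows, and the cause was not tested. With 75th percentile and median scaling, the difference was 0.12 and 0.15 for Hp, 0.092 and 0.13 for Saa2, 0.030 and 0.065 for Saa4 (a), and 0.11 and 0.15 for C3, which was 0.011 with normexp. With slide as a fixed block and within slide 2 it was -0.071 for Saa1 (b), 0.45 for Saa4 (a), -0.25 for Cebpb, -0.25 for Hamp and -0.49 for Orm3. With slide as a random block it was 0.14 for Saa4 (a), -0.0030 for Cebpb and -0.12 for Orm3. With 1 array left out the ranges were -0.26 to 0.51 for Saa1 (a), -0.24 to 0.47 for Saa1 (b), -0.37 to 0.31 for Saa2, -0.050 to 0.67 for Saa3, -0.30 to 0.12 for Saa4 (a), -0.21 to 0.28 for Saa4 (b), -0.071 to 0.36 for Cebpb, -0.21 to 0.41 for Orm3, -0.019 to 0.027 for Socs3 and -0.84 to 0.43 for Tnf. Among list medians, without control 3 the Serpina3 cluster turned to -0.083, stellate cells to 0.083, cholangiocytes to 0.24 and lymphocytes to 0.18. The cholangiocyte median also turned with normexp (0.029) and without MC-LR 1 (0.082) or MC-LR 3 (0.19), and the lymphocyte median without MC-LR 3 (0.14). The 3 livers a group and 1 control on the slide of the treated livers limit every difference here.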

Other observations

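Hamp, which encodes the iron hormone hepcidin and is also an acute phase gene, went its own way, and it was picked after its values were seen. It read 14.87, 14.24 and 16.84 in controls and 16.61, 16.09 and 17.06 with MC-LR, so control 3 stood with the treated livers. The difference was 1.27 ± 0.67 (SE), with an unadjusted p of 0.106 and an adjusted p of 0.476 by limma, and within slide 2 it was -0.25. Its neighbour Hamp2, named in the same way, read 9.24, 8.40 and 8.49 in controls and 9.86, 9.19 and 8.87 with MC-LR, a difference of 0.60 ± 0.33 (SE) with overlapping groups. S100a8, the partner of S100a9 in the neutrophil protein calprotectin, was also picked after its values were seen. It read 10.32, 10.18 and 11.10 in controls and 9.37, 10.62 and 9.32 with MC-LR. Like S100a9, it was higher in MC-LR 2 than in the other treated livers.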
